A study of Homo sapiens with 36 samples.

Results

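Long non-coding RNAs are transcripts that are not translated and that can act on other genes, on proteins or on other RNAs. An LNA gapmer is a short antisense oligonucleotide with a DNA core and locked nucleic acid ends, which recruits RNase H to cut the RNA it binds. A gain or loss of a stretch of a chromosome changes the copy number of all its genes at once, and their RNA then tends to shift together. The question here was whether neighbouring genes on the distal long arm of chromosome 15 shifted together in arrays of the cell line MEC-1, labelled as treated with gapmers against the long non-coding RNA CYTOR (also LINC00152).

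The region was defined as the 580 units of an Affymetrix whole-transcriptome array whose identifiers run from TC1500009800.hg.1 to TC1500010400.hg.1, out of 135750 units on the array. A unit is a set of probes for 1 transcript cluster. The window holds 581 units, of which 1 was left out by the rule. Of the 580 members, 167 had a single gene name (164 different genes) and 413 had none. All 164 genes were found in the RefSeq gene table of GRCh38.p14, 157 of them on chromosome 15 and 7 on another chromosome. Across genes, identifier order followed the RefSeq start position (Spearman's rho 0.9999), and all 82 genes whose strand was known lay on the minus strand. The members were chosen by position around TBC1D2B, EFL1 and KLHL25, which were selected on their higher signal in the CYTOR treatments than with scrambled gapmer. The changes against scrambled gapmer in that experiment therefore chose the members and are given as a description. Calls at a threshold are printed for them beside the share over all units, and nothing about the region is supported with them.

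MEC-1, established from a chronic lymphocytic leukaemia, grows as B cells in culture. The cells were given gapmers without a transfection reagent, at 1 µM of each gapmer for 4 days. The CYTOR experiment had arrays labelled gapmer 1, gapmer 2, gapmer 1+2 (both gapmers) and scrambled gapmer, with 3 arrays in each group. The LINC00158 and RP11-161H23.5 experiments, on 2 other long non-coding RNAs, had the same 4 groups each, with their own scrambled arrays, which made 36 arrays in 12 groups. The labels do not say whether the 3 arrays of a group came from separate cultures, so that every p-value measures the spread between these arrays, which may be technical. The dose is given per gapmer, so that the gapmer 1+2 arrays may have had more oligonucleotide in all. MEC-1 is 1 cell line, and no DNA measurement was used.

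The unit named CYTOR went against the labels. It read 7.45, 6.79 and 6.55 on the log2 scale in the arrays labelled gapmer 1, 6.75, 6.28 and 6.64 in those labelled gapmer 2 and 6.07, 6.49 and 6.24 in those labelled gapmer 1+2, against 5.25, 5.27 and 5.51 in the scrambled arrays. All 9 arrays labelled as treated were above all 3 scrambled arrays, so that each direction given below for the CYTOR experiment is that of the labelled arrays. In the LINC00158 experiment the target read 5.57 ± 0.31, 6.01 ± 0.41 and 5.32 ± 0.52 (SD, n = 3 each) with gapmer 1, gapmer 2 and gapmer 1+2 and 7.94 ± 0.75 with scrambled gapmer. No unit is named RP11-161H23.5, and that target was not checked. The arrays also fell into 4 sets of 9 by the number of exactly equal values they shared, namely the 9 scrambled arrays and the 9 treated arrays of each experiment. Among 7583 units, at least 2.39% of values were shared within a set and at most 0.87% between sets. Treatment and set cannot be told apart in any comparison with scrambled gapmer.

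The 3 genes that led to the choice of the region have different functions. TBC1D2B has a TBC domain, which marks proteins that switch off RAB GTPases in membrane traffic. EFL1 is a GTPase that helps to release the anti-association factor eIF6 from the large ribosomal subunit. KLHL25 is a substrate adaptor of CUL3 ubiquitin ligases. Their promoters are shown because the genes were chosen for a common direction, as 250 bases before and 50 bases after the start (RefSeq, GRCh38.p14, minus strand), at chr15:78077662-78077961 for TBC1D2B, chr15:82262685-82262984 for EFL1 and chr15:85794876-85795175 for KLHL25. Capitals mark GGGCGG or CCAAT on either strand (CCGCCC or ATTGG when read on the printed strand), and matches that overlap run together.
TBC1D2B: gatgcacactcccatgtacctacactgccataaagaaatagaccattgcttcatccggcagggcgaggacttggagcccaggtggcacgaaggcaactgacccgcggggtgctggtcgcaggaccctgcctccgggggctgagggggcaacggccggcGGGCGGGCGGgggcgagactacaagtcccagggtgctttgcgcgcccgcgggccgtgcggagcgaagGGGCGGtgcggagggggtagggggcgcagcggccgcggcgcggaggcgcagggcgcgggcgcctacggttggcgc
EFL1: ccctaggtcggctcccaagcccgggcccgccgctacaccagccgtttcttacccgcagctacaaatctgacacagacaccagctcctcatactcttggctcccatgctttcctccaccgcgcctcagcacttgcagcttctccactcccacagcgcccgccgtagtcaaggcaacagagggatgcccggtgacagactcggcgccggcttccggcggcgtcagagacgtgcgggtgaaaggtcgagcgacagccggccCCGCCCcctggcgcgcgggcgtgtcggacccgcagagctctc
KLHL25: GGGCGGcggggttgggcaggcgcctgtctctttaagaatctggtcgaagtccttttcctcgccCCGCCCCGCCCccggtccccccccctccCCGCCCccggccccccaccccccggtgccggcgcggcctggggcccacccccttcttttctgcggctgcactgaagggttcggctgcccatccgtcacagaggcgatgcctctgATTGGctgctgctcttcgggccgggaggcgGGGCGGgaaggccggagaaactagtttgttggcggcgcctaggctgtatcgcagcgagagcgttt
The 300 bases of TBC1D2B held 3 matches to GGGCGG and were 72.0% G or C. Those of EFL1 held 1 match and were 67.3% G or C. Those of KLHL25 held 5 matches to GGGCGG and 1 to CCAAT and were 70.3% G or C. TATAAA, searched on both strands as well, was in none of the 3 windows. Over all 35116 RefSeq promoters of the same length, 45.0% held GGGCGG, 34.6% CCAAT and 11.5% TATAAA on either strand. A match is a description of these letters only.

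TBC1D2B, EFL1 and the brighter unit of KLHL25 had a higher signal in all arrays labelled as treated than in the scrambled arrays. TBC1D2B read 10.10, 10.54 and 10.09 with gapmer 1, 10.33, 10.20 and 10.70 with gapmer 2 and 9.82, 10.14 and 10.27 with gapmer 1+2, against 8.37, 8.0 and 8.91 with scrambled gapmer. Every array labelled as treated was above every scrambled array, and the log2 changes were 1.82, 1.98 and 1.65 (SE 0.26 each). Since the median of all tested units was itself at -0.23, -0.26 and -0.20 in these 3 comparisons, TBC1D2B was 2.05, 2.24 and 1.85 above the median unit. In RNA from whole cultures, more RNA per cell and more cells with the RNA cannot be told apart.

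EFL1 was dimmer. It read 8.06, 8.30 and 7.92 with gapmer 1, 7.92, 7.75 and 8.17 with gapmer 2 and 7.93, 7.97 and 7.71 with gapmer 1+2, against 6.84, 6.77 and 5.85 with scrambled gapmer. The groups did not overlap, and the changes were 1.61, 1.46 and 1.38 (SE 0.26 each), or 1.84, 1.72 and 1.58 above the median unit. Scrambled replicate 3, at 5.85, was well below the other 2. KLHL25 had 2 tested units. The brighter read 5.61, 5.19 and 5.55 with gapmer 1, 5.89, 5.55 and 5.59 with gapmer 2 and 5.81, 5.52 and 5.75 with gapmer 1+2, against 4.48, 3.71 and 4.20 with scrambled gapmer. Again no treated array overlapped a scrambled array, and the changes were 1.32, 1.55 and 1.56 (SE 0.22 each). The second KLHL25 unit, between 3.56 and 4.46 on these 12 arrays, differed by only 0.37, 0.41 and 0.35 (SE 0.20 each), so that the 2 units of the gene did not give the same size of change.

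**Figure D1:**
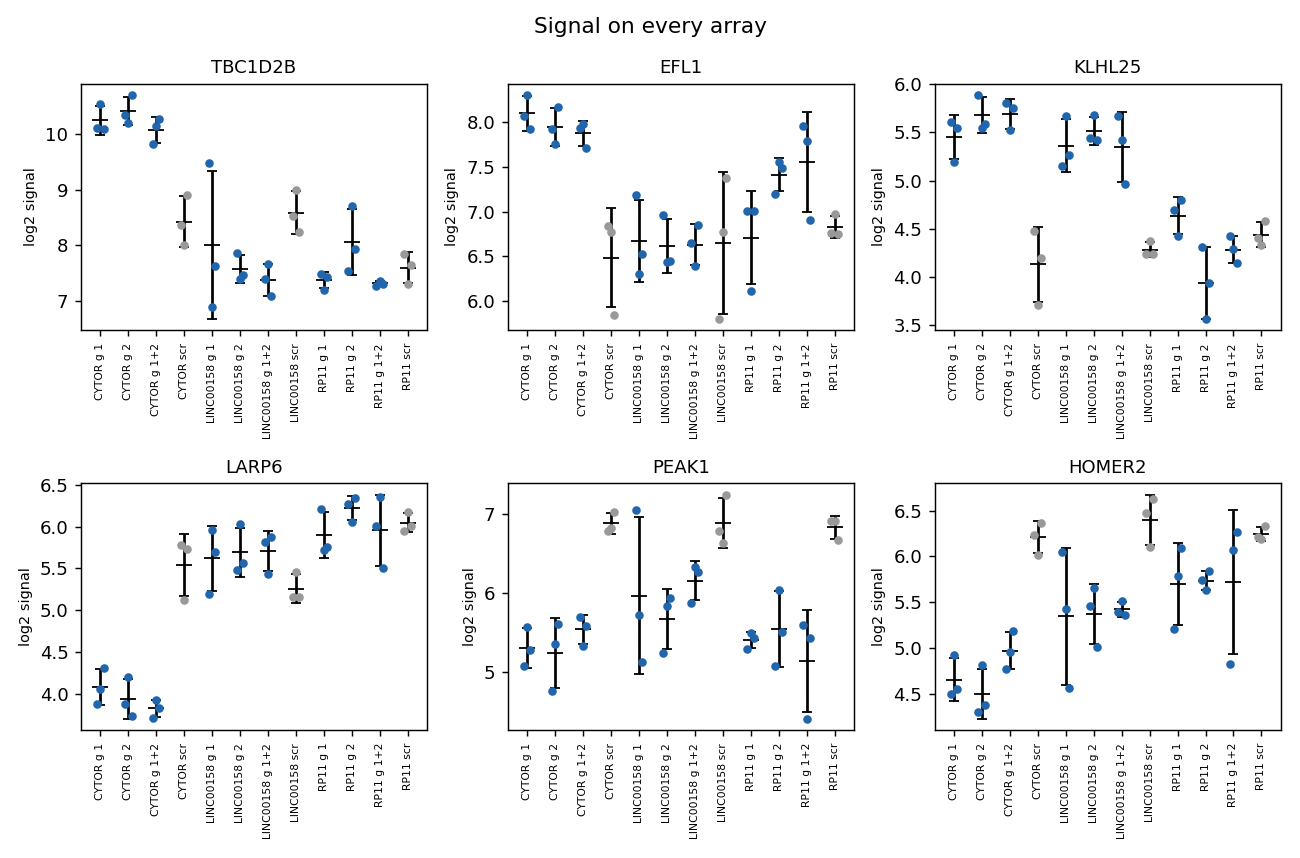
Log2 signal (vertical axis) of 6 genes of the region in the 12 groups (horizontal axis; g, gapmer; scr, scrambled; RP11, RP11-161H23.5), with 1 point per array and the mean ± SD of 3 arrays in black. In the first 4 groups TBC1D2B, EFL1 and KLHL25 (brighter unit) were higher, and LARP6, PEAK1 and HOMER2 lower, in the arrays labelled CYTOR gapmer 1, gapmer 2 and gapmer 1+2 than in the scrambled arrays.

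No shift of the region as a whole was seen beside them. Of the members, 290 of 580 (50%), passed a filter for dim units, which kept those whose mean signal reached the median over the array, against 53.7% of the other TC15 units. The median log2 change of the 290 tested members was -0.27, -0.27 and -0.22 with gapmer 1, gapmer 2 and gapmer 1+2. That of the 2064 other tested TC15 units, which carry the array's chromosome 15 prefix and lie outside the window, was -0.23, -0.26 and -0.19. The difference between the 2 medians was thus -0.047, -0.012 and -0.027. By comparison, a region with 3 copies in place of 2 would shift by 0.585 on the log2 scale if RNA followed copy number. All 3 differences were on the side of a lower signal in the region, opposite to the 3 genes named above, but that of gapmer 1 turned to 0.008 without the filter on dim units.

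The difference was small on every array. Each array's members were set against the mean of the scrambled arrays, and the median of the other TC15 units was taken off. With gapmer 1 the 3 arrays gave -0.040, -0.060 and 0.015, with gapmer 2 -0.065, 0.015 and -0.003 and with gapmer 1+2 0.018, -0.047 and -0.038, against -0.003, -0.023 and 0.018 with scrambled gapmer. The arrays of the 4 groups overlapped, and both signs occurred in each group. Each scrambled array is part of the mean it was set against, which draws its value towards 0. The scrambled values are therefore no independent control for the treated arrays. The group means were -0.028 ± 0.039, -0.018 ± 0.042 and -0.022 ± 0.035 (SD, n = 3 each) with the gapmers and -0.003 ± 0.021 with scrambled gapmer.

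**Figure D2:**
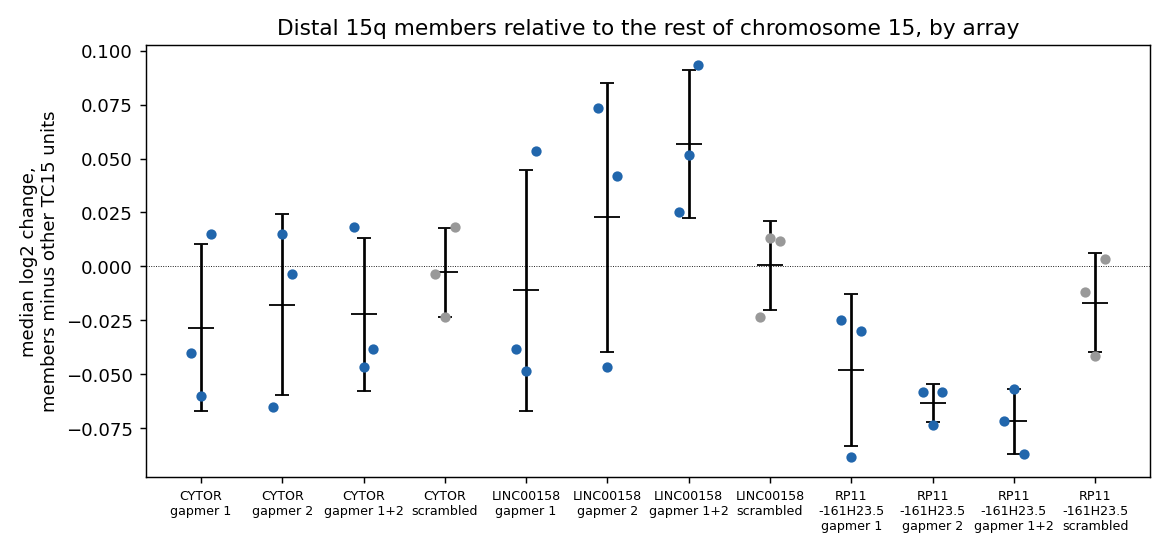
Median log2 change of the distal 15q members minus that of the other TC15 units (vertical axis) on each of the 36 arrays, by group (horizontal axis), each array against the mean of its own experiment's scrambled arrays, with the mean ± SD of 3 arrays in black. The CYTOR arrays lie on both sides of 0 in every group, between -0.065 and 0.018. Scrambled arrays are part of the mean they were set against, which draws them towards 0.

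Along the identifier order the 3 blocks of members were not set apart from the other blocks. In blocks of 200 consecutive identifiers, the median over units of the mean change across the 3 CYTOR treatments was -0.277, -0.178 and -0.295 in the 3 blocks of members, with 97, 98 and 94 tested units. In the 19 blocks that held no member it ran from -0.312 to -0.131, and all 3 member blocks lay within that range. The middle block, which holds TBC1D2B, had the median nearest to 0 of the 3. A running median of 51 tested units went from -0.50 to -0.01 over the members with gapmer 1, against -0.37 to -0.03 over the rest of the minus-strand run. With gapmer 2 it covered -0.44 to -0.10 over the members and -0.40 to -0.03 elsewhere, and with gapmer 1+2 -0.36 to -0.04 and -0.40 to 0.05. With gapmer 1 and gapmer 2 the running median was thus lowest at a position among the members. It stayed below 0 at every position of the members in each treatment.

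**Figure D3:**
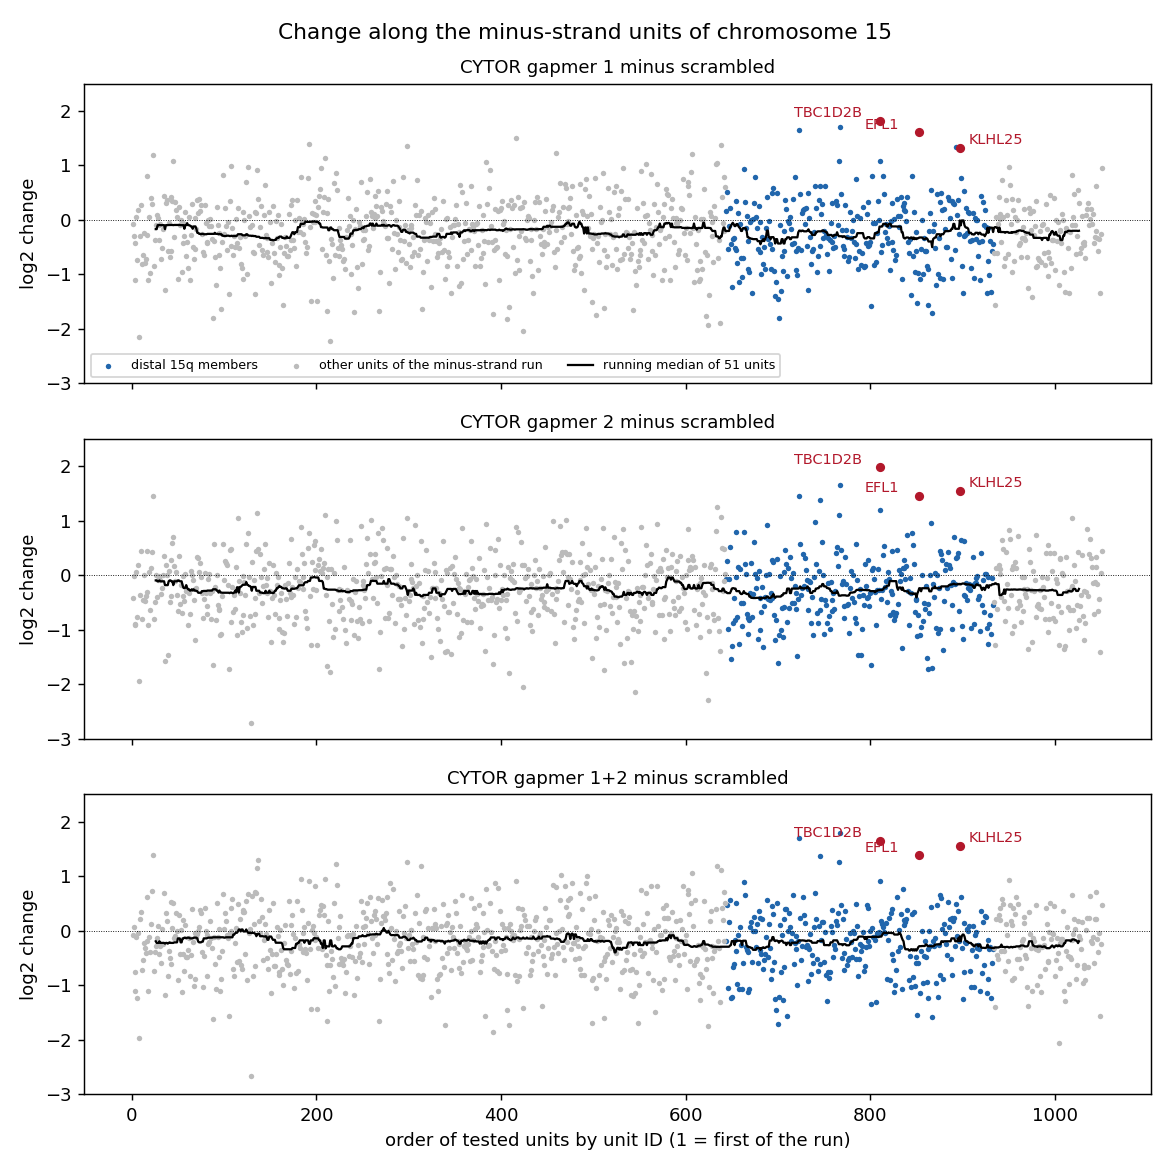
Log2 change against scrambled gapmer (vertical axes) of the tested minus-strand units of chromosome 15, in identifier order (horizontal axis), for the 3 CYTOR treatments, with members in blue, other units in grey and a running median of 51 units as a black line. TBC1D2B, EFL1 and KLHL25 (red) lie far above a running median that stays below 0 over the members.

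**Figure D4:**
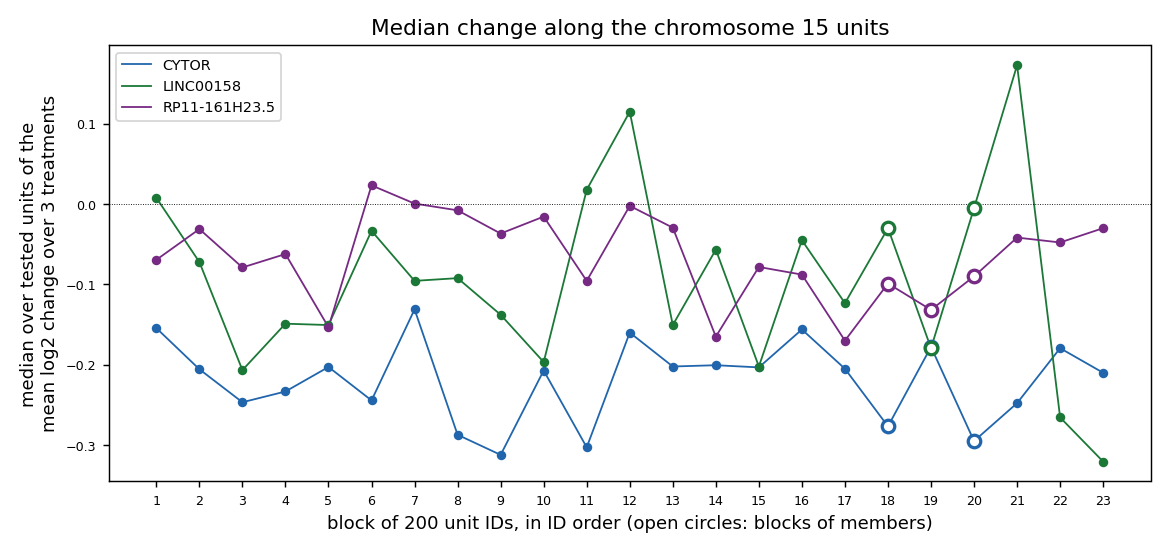
Median over tested units of the mean log2 change across 3 treatments (vertical axis) in consecutive blocks of 200 identifiers of chromosome 15 units (horizontal axis), with 1 line per experiment and open circles for the 3 blocks of members. The CYTOR line stays below 0 in every block, and its member blocks lie between -0.295 and -0.178.

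Neighbouring units also changed with little relation to each other. Across adjacent tested units the Pearson correlation of the mean change was 0.097 over 289 pairs in the region, against -0.005 over 759 pairs in the rest of the minus-strand run (Spearman's rho 0.062 and -0.016). These correlations are across units of the same 12 arrays, which are not independent replicates.

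The units directly beside the 3 genes went both ways. The unit before TBC1D2B, without a gene name, differed by 1.09, 1.20 and 0.91 and was called in 2 of the 3 treatments, and the unit after it by -0.58, -0.43 and 0.18. The unit before EFL1, without a name, was lower by a mean of -0.77. The unit after EFL1, RNU1-77P, a pseudogene of the U1 small nuclear RNA, was lower by a mean of -1.11. The unit before the brighter KLHL25 unit, without a name, was lower by a mean of -0.37. The unit after it, also without a name, was called higher in all 3 treatments, at 0.77, 0.66 and 0.62. Thus 2 of the 6 adjacent units were higher in each treatment, as their genes were. Among the 10 tested units on either side of TBC1D2B, 6 of 20 had a mean change above 0, and their median was -0.170. Around EFL1, 2 of 20 were above 0, with a median of -0.546. Around KLHL25, 8 of 19 were above 0, with a median of -0.052. Between TBC1D2B and EFL1 lay 41 tested units with a median of -0.207, and between EFL1 and KLHL25 43 with a median of -0.253.

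A call means an adjusted p under 0.05 in limma (Benjamini-Hochberg, over all tested units of the array). With gapmer 1, 55 of 290 members were called (19.0%, against a background of 13.1% of all tested units), 13 higher (background 1.77%) and 42 lower (background 11.4%). With gapmer 2, 57 were called (19.7%, background 14.2%), 13 higher (background 1.84%) and 44 lower (background 12.4%). With gapmer 1+2, 42 were called (14.5%, background 10.5%), 10 higher (background 1.54%) and 32 lower (background 8.93%). The rule used these comparisons, and nothing is read from the counts. Quantile normalization, which evens out the lower median of the treated arrays, left 18 higher and 11 lower with gapmer 1 (9.86% called, background 6.0%), 16 and 11 with gapmer 2 (9.18%, background 6.77%) and 10 and 8 with gapmer 1+2 (6.12%, background 4.28%), so that lower calls no longer outnumbered higher ones. The counts also depended on single arrays. Those of gapmer 1 numbered fewer without CYTOR scrambled replicate 1 (31), CYTOR scrambled replicate 2 (35) or CYTOR gapmer 1 replicate 1 (29), 2 (33) or 3 (27), and that of gapmer 2 was 36 without CYTOR scrambled replicate 1. With gapmer 1+2 there were 22 calls without CYTOR scrambled replicate 1, 27 without CYTOR scrambled replicate 2, and 21, 21 and 24 without CYTOR gapmer 1+2 replicate 1, 2 or 3. In each of these fits the background was lower as well, at 4.55% to 8.76%, against 7.22% to 12.2% of the members.

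In all 3 treatments, 9 members were called higher (3.10%) and 23 lower (7.93%), against backgrounds of 0.647% and 5.7%. Among the other TC15 units the shares were 0.727% and 5.77%. TBC1D2B, EFL1 and KLHL25 were the 3 named units among the 9. The other 6 had no gene name, with mean changes from 0.47 to 1.71, and made up 2.09% of 287 tested members without the 3 genes. The unit at 0.47 averaged 18.54 in each of the 3 treated groups, against 18.07 with scrambled gapmer. Of the 23 units called lower, 9 were named, and the mean changes ran from -1.66 to -0.76. The 2 directions were mixed along the chromosome. Of the 31 pairs of consecutive units among these 32, 12 joined opposite directions and 3 joined 2 higher units. Between TBC1D2B and EFL1 lay 4 units called lower in all 3 and between EFL1 and KLHL25 7, with none called higher in either stretch. The filter limit was a mean of 3.88 over the 12 arrays. Of the 23 units called lower, 7 had a treated group mean under that limit, and of the 9 called higher, 4 had a scrambled mean under it. The groups where these 11 units were high helped them pass the filter, and the counts are no support for a change of the region.

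The sizes of the changes were set against 0.585, the shift that 3 copies in place of 2 would give. By size, 11 tested members (3.79%) had a change of at least 0.585 in each of the 3 treatments. Another 49 (16.9%) were at or below -0.585 in all 3. Of the other TC15 units, 47 (2.28%) and 327 (15.8%) passed these limits. A further count was of the mean change over the 3 treatments, with the median of all tested units as the zero. It is another measure than the first, and the counts are not to be compared. By it, 40 members (13.8%) were above 0.585 and 49 (16.9%) below -0.585, against 244 (11.8%) and 281 (13.6%) of the other TC15 units. Above 0 lay 142 members (49.0%), against 1052 others (51%). Both tails held a slightly greater share of the members, and the SD of the mean change was 0.574 over members and 0.534 over other TC15 units. The upper counts and the SD include TBC1D2B, EFL1 and KLHL25, which were selected on their higher signal in these arrays. They are a description, and nothing about the region is read from them.

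**Figure D5:**
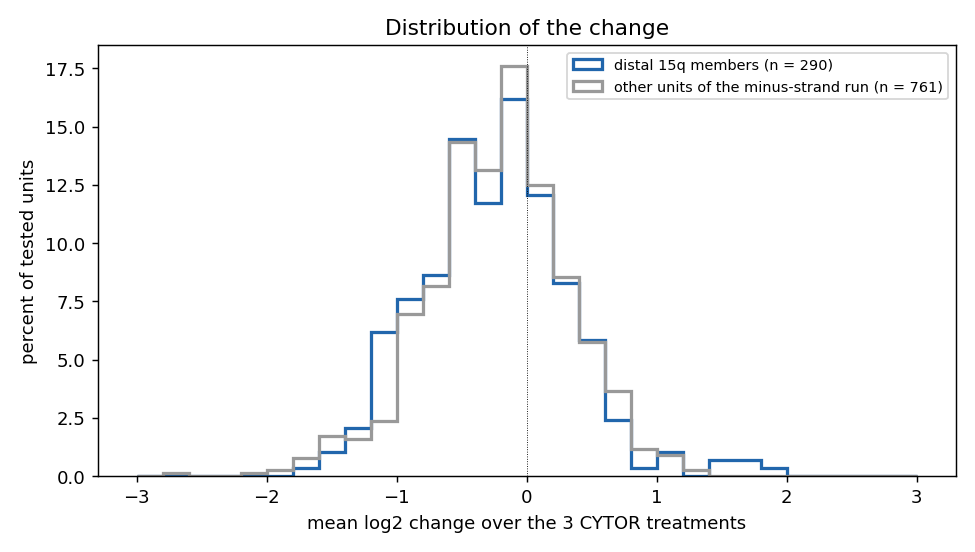
Share of tested units in percent (vertical axis) by mean log2 change over the 3 CYTOR treatments (horizontal axis, bins of 0.2), for the distal 15q members in blue and the other units of the minus-strand run in grey. The 2 outlines largely coincide, except for 5 members above 1.4 and a higher share of members between -1.2 and -1. TBC1D2B, EFL1 and KLHL25, selected on their higher signal, are among those above 1.4.

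The lowest named members were of several kinds. LARP6, an RNA-binding protein known for binding a stem-loop of collagen mRNAs, read 3.88, 4.06 and 4.31 with gapmer 1, 3.88, 4.20 and 3.74 with gapmer 2 and 3.72, 3.93 and 3.84 with gapmer 1+2, against 5.78, 5.12 and 5.73 with scrambled gapmer. The treated arrays of LARP6 lay at about the median signal of an array and the scrambled arrays above it, without overlap, and the changes were -1.46, -1.60 and -1.71 (SE 0.22 each). PEAK1, a pseudokinase of the focal adhesion and cytoskeleton, read 5.07, 5.57 and 5.27 with gapmer 1, 4.75, 5.35 and 5.61 with gapmer 2 and 5.70, 5.33 and 5.58 with gapmer 1+2, against 6.79, 6.83 and 7.03 with scrambled gapmer. No array overlapped, and the changes were -1.58, -1.65 and -1.35 (SE 0.23 each). HOMER2, a scaffold protein that binds glutamate receptors at synapses, read 4.49, 4.92 and 4.55 with gapmer 1, 4.30, 4.81 and 4.38 with gapmer 2 and 4.77, 4.96 and 5.18 with gapmer 1+2, against 6.24, 6.02 and 6.37 with scrambled gapmer. Its groups were also separate, with changes of -1.56, -1.71 and -1.24 (SE 0.20 each). The mean change of HOMER2 was also below 0 in the LINC00158 experiment (-1.02, not called) and the RP11-161H23.5 experiment (-0.53). For LARP6 these means were 0.41 and -0.02, and the values of PEAK1 are given below.

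Several of the other low members were pseudogenes, whose probes may also read their parent genes. RNU1-77P differed by -1.09, -1.10 and -1.14 (SE 0.25 each) and HMGB1P8, a pseudogene of the chromatin protein gene HMGB1, by -1.11, -1.02 and -1.11 (SE 0.26 each), both called in all 3 treatments. RPL5P3, a pseudogene of the ribosomal protein gene RPL5, differed by -1.30, -1.01 and -0.75 (SE 0.29 each), and replicate 3 of gapmer 1+2, at 8.73, equalled 2 of the scrambled arrays. ACTG1P17, a pseudogene of the gamma-actin gene, and NRG4, a neuregulin that binds the receptor ERBB4, were called with gapmer 2 alone, at -1.52 and -1.45 (SE 0.38 and 0.37). Their other changes lay between -0.95 and -0.82, and no test of a difference between gapmers passed for any member. The remaining named units called lower in all 3 treatments read between 3.48 and 6.63 on the 12 arrays. LOC102724034, with no role given here, differed by -0.99, -0.85 and -0.97. CHRNA3, a subunit of nicotinic acetylcholine receptors, differed by -0.93, -0.72 and -0.90, RASGRF1, an exchange factor that activates RAS, by -0.73, -0.74 and -0.99, and CYP11A1, the side-chain cleavage enzyme that opens steroid synthesis, by -0.67, -0.88 and -0.73. CYP11A1 averaged 3.92, 3.70 and 3.85 with gapmer 1, gapmer 2 and gapmer 1+2 and 4.58 with scrambled gapmer, and CHRNA3 3.75, 3.95 and 3.78 against 4.68, so that both passed the filter through the scrambled arrays. CHRNA3 was also lower with the LINC00158 gapmers (3.53, 3.74 and 3.55 against 4.81) and the RP11-161H23.5 gapmers (3.72, 3.96 and 3.93 against 4.35). CYP11A1 was lower with the RP11-161H23.5 gapmers (3.56, 3.79 and 3.59 against 4.31). With the LINC00158 gapmers CYP11A1 averaged 4.03, 3.86 and 4.04 against 4.03.

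Below the 3 leading genes, the highest named members were less clear. BTBD1, a BTB-domain protein that binds CUL3 and topoisomerase I, read 8.85, 8.89 and 8.03 with gapmer 1, 8.53, 9.17 and 9.28 with gapmer 2 and 8.23, 8.46 and 8.72 with gapmer 1+2, against 8.01, 8.43 and 7.66 with scrambled gapmer. Its treated and scrambled arrays overlapped, and no change was called (0.56, 0.96 and 0.44, SE 0.30 each). RN7SL429P, a pseudogene of the 7SL RNA, was called with gapmer 2 (0.98, SE 0.25) and RNU6-1280P, a pseudogene of U6 RNA, with gapmer 1 (1.34, SE 0.32), and neither with the other treatments. UBE2Q2P11 and UBE2Q2P12, pseudogenes of the ubiquitin-conjugating enzyme gene UBE2Q2, were not called, at 0.32 to 0.66. Signals of near-identical copies cannot be told apart with certainty on an array, so that the levels of these pseudogenes are uncertain.

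By function, few listed genes of the region were both members and bright enough to test. Of all tested units, 0.647% were called higher and 5.7% lower in all 3 CYTOR treatments. TBC1D2B, EFL1 and KLHL25 had been selected on their higher signal, so that their calls are a description. Of 6 tested genes of trafficking and the cytoskeleton, 1 was called higher (TBC1D2B) and 1 lower (HOMER2) in each CYTOR treatment. The other 4 were KIF7, a kinesin of the primary cilium, AP3B2, a neuronal adaptor subunit, SEC11A, a catalytic subunit of the signal peptidase, and PEX11A, which acts in peroxisome division, with changes from -0.72 to 0.10. Of 4 tested genes of ubiquitin and proteolysis, KLHL25 was the 1 called in each treatment. CTSH, the lysosomal protease cathepsin H, differed by 0.01, -0.83 and -1.13 (SE 0.49 each), with treated arrays from 7.05 to 9.79 around scrambled arrays from 8.65 to 8.88, and DET1, part of a COP1 ubiquitin ligase, by -0.39, -0.27 and -0.75 (SE 0.26 each). Of 2 tested genes listed for translation and RNA, EFL1 was called. The other was CTSH, the lysosomal protease named above, so that only EFL1 stood for that function. RASGRF1 and CHRNA3 were called lower in all 3 treatments in lists of immune cell genes and of receptors with 2 tested genes each, while MFGE8, which marks apoptotic cells for uptake, and NTRK3, the neurotrophin-3 receptor, were not called. POLG, the mitochondrial DNA polymerase, and ETFA, a subunit of the electron transfer flavoprotein, were the only tested members of their lists and were not called. The 1 transcription factor among the members did not pass the filter.

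The class of a unit and its brightness moved with the change. The 56 tested protein-coding members had a median mean change of -0.135, against -0.108 in 394 other protein-coding TC15 units. The 29 tested pseudogenes had -0.432, against -0.198 in 192 others, and the 8 long non-coding RNAs -0.601, against -0.168 in 37. The 184 tested members without a gene name had -0.185, against -0.251 in 1403 others. With single gene names alone, the median of the members minus that of the other TC15 units was -0.228, -0.132 and -0.142 with gapmer 1, gapmer 2 and gapmer 1+2, lower than over all units. By signal, the 22 brightest members, with a mean of 10 or more, had medians of 0.09, 0.01 and 0.11, against -0.06, -0.15 and 0.05 in 120 other units as bright. The 71 members between 5 and 7 had -0.43, -0.55 and -0.38, against -0.30, -0.33 and -0.21 in 531 others. The part of class and brightness in the differences was not tested.

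At the ends of the window the named units did not mark a step. DENND4A, an exchange factor for RAB10 and the first named tested member, differed by 0.51, 0.26 and 0.47, and the nearest named unit before the window, RNU6-19P, by 0.61, 0.02 and 0.51. PEX11A, the last, differed by -0.45, -0.54 and -0.33, and the nearest named unit after the window, RPL36AP43, by -0.61, -0.48 and -0.32. At each end the values inside and outside had the same sign in all 3 treatments.

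Genes of the opposite strand, which share the region's DNA and were no members, were read by separate units on the same arrays. Of 100 such genes within the RefSeq span of the named members, 72 were tested. With gapmer 1, 4 rose and 7 fell, with gapmer 2 4 rose and 9 fell, and with gapmer 1+2 4 rose and 8 fell, at the backgrounds given above. Their median changes were -0.06, -0.15 and -0.17, against -0.23, -0.26 and -0.20 over all tested units, with and without a gene name. The 394 tested protein-coding TC15 units outside the members had medians of -0.04, -0.17 and -0.13. They are closer to these genes in class and include some of them. DNAJA4, an HSP40 co-chaperone, rose by 1.37, 1.24 and 1.35 (SE 0.27), KIF23, a kinesin of cytokinesis, by 1.23, 1.30 and 1.06 (SE 0.22), and RPLP1, an acidic protein of the large ribosomal subunit, by 0.75, 0.76 and 0.76 (SE 0.13), all 3 called in every treatment. UBL7-DT, a divergent transcript beside UBL7, was called with gapmer 1 and gapmer 1+2 (0.85 and 0.83, SE 0.20). DIS3L, an exonuclease of the cytoplasmic exosome, fell by 1.40, 1.75 and 1.66 (SE 0.16), and UBE2Q2 fell by 1.07, 0.97 and 0.93 (SE 0.20), in contrast to the values of its pseudogenes above. CPLX3, a complexin of synapses, was called lower with gapmer 2 and gapmer 1+2 (-1.04 and -0.81, SE 0.20). SKOR1, TMC3-AS1 and IL16, the precursor of a cytokine, were not called, with mean changes of -0.95, -0.90 and 0.79.

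The CYTOR treatments were not told apart in the region. Gapmer 1 against gapmer 2 gave 0 calls among 290 members in limma (background 0% of all tested units). At an unadjusted p under 0.05 there were 19, against 4343 of all 67888 tested units. Gapmer 1+2, set against the mean of gapmer 1 and gapmer 2, also gave 0 (background 0%), with 14 at an unadjusted p under 0.05 (4462 of all units). The median difference over members was 0.00 in the first and 0.02 in the second. A p that misses the threshold does not show that the gapmers acted alike.

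The scrambled arrays of the 3 experiments were also set against each other. CYTOR scrambled against LINC00158 scrambled gave 0 calls among 289 members in limma (background 0%), with 28 at an unadjusted p under 0.05, against 6602 of all 67878 tested units. CYTOR scrambled against RP11-161H23.5 scrambled gave 3 calls (1.04%, background 1.53%), with 52 at an unadjusted p under 0.05 (11271 of all units), and 0 calls without CYTOR scrambled replicate 2 or RP11-161H23.5 scrambled replicate 2 or 3. RP11-161H23.5 scrambled against LINC00158 scrambled gave 16 (5.54%, background 5.19%), with 66 at an unadjusted p under 0.05 (15521 of all units), and between 1 and 5 calls without any 1 of the 6 arrays. The choice of scrambled arrays moved the CYTOR counts. With RP11-161H23.5 scrambled gapmer as control, 109, 106 and 105 members were called with gapmer 1, gapmer 2 and gapmer 1+2 (36.9%, 35.9% and 35.6%), at backgrounds of 29.0%, 26.5% and 27.1%.

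In the LINC00158 experiment the members were tested on arrays that the choice of the region did not use. KLHL25 rose in each treatment. Its brighter unit read 5.15, 5.67 and 5.27 with gapmer 1, 5.44, 5.68 and 5.42 with gapmer 2 and 5.67, 5.42 and 4.96 with gapmer 1+2, against 4.24, 4.37 and 4.24 with scrambled gapmer. The groups did not overlap, and the changes of 1.08, 1.23 and 1.07 (SE 0.22 each) had limma adjusted p-values of 0.0149, 0.0069 and 0.0123. The second KLHL25 unit was not called (0.23, 0.26 and 0.37, SE 0.18 each). TBC1D2B was on the other side, at 9.48, 6.90 and 7.64 with gapmer 1, 7.86, 7.40 and 7.47 with gapmer 2 and 7.39, 7.66 and 7.09 with gapmer 1+2, against 8.52, 9.0 and 8.24 with scrambled gapmer. Gapmer 1 replicate 1 lay above the scrambled arrays and the other 8 treated arrays below them, and no change was called (-0.58, -1.01 and -1.21, SE 0.51 each; limma adjusted p = 0.473, 0.187 and 0.127). EFL1 differed by 0.02, -0.03 and -0.02 (SE 0.37 each), with scrambled arrays spread from 5.80 to 7.37.

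Over the region, 44 of 298 tested members were called with LINC00158 gapmer 1 (14.8%, background 10.8%), 19 higher (background 4.54%) and 25 lower (background 6.28%). With gapmer 2, 56 were called (18.8%, background 17.4%), 26 higher (background 6.89%) and 30 lower (background 10.5%). With gapmer 1+2, 52 were called (17.4%, background 15%), 21 higher (background 6.19%) and 31 lower (background 8.82%). Quantile normalization turned the split to 23 higher and 16 lower with gapmer 1 (13.1% called, background 8.68%), 29 and 21 with gapmer 2 (16.8%, background 13.9%) and 25 and 18 with gapmer 1+2 (14.4%, background 12.5%). The median change of the members minus that of the other TC15 units was 0.002, 0.013 and 0.082, while the arrays' own values ran from -0.048 to 0.093 with the gapmers and from -0.023 to 0.013 with scrambled gapmer. The scrambled arrays were again part of the mean they were set against. In gapmer 1 the count was 76 without LINC00158 gapmer 1 replicate 1 (25.4%, background 25.6%), and 14, 20, 25, 17 and 16 without scrambled replicates 1, 2 and 3 or gapmer 1 replicates 2 and 3 (4.73% to 8.42%, backgrounds 3.16% to 4.96%). In gapmer 2 it was 26, 32 and 34 without scrambled replicate 1, 2 or 3 and 27 and 33 without gapmer 2 replicate 2 or 3 (8.78% to 11.4%, backgrounds 7.08% to 10.7%). In gapmer 1+2 it was 23, 24 and 30 without scrambled replicate 1, 2 or 3 and 19, 15 and 32 without gapmer 1+2 replicate 1, 2 or 3 (5.08% to 10.9%, backgrounds 4.73% to 9.36%). The share of all units called thus fell with that of the members.

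In all 3 LINC00158 treatments 14 members rose (4.70%, background 3.01%) and 20 fell (6.71%, background 4.1%). Those with a name were chosen for mention after their values were seen. The 4 that rose were KLHL25, RN7SL429P, RN7SL438P and the long non-coding RNA LINC00928, which rose by 0.98, 1.24 and 1.18 (SE 0.27 each; limma adjusted p = 0.0403, 0.0132 and 0.0178). Of the 9 that fell, SEMA7A, a membrane-anchored semaphorin, differed by -1.59, -1.87 and -1.61 (SE 0.37 each; limma adjusted p = 0.0244, 0.0102 and 0.0192). UBL7, a ubiquitin-like protein, differed by -1.40, -1.52 and -1.59 (SE 0.37 each) and the tetraspanin TSPAN3 by -1.38, -1.46 and -1.36 (SE 0.34 each). IQCH-AS1, RNU6-1, RPL5P3, LOC102724034, RN7SL331P and RN7SL428P were the other named ones, and the last 2 had identical values on every array, so that they count as 1 measurement.

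In the RP11-161H23.5 experiment none of the 3 leading genes was called. TBC1D2B read 7.49, 7.21 and 7.44 with gapmer 1, 7.54, 8.70 and 7.93 with gapmer 2 and 7.28, 7.37 and 7.31 with gapmer 1+2, against 7.85, 7.30 and 7.65 with scrambled gapmer. The groups overlapped, and the changes were -0.22, 0.46 and -0.28 (SE 0.26 each). EFL1 differed by -0.12, 0.58 and 0.72 (SE 0.30 each) and KLHL25 by 0.20, -0.50 and -0.15 (SE 0.20 each). PEAK1 fell in each treatment. It read 5.29, 5.49 and 5.43 with gapmer 1, 5.07, 6.04 and 5.51 with gapmer 2 and 5.59, 4.40 and 5.43 with gapmer 1+2, against 6.91, 6.92 and 6.67 with scrambled gapmer. All treated arrays were below all scrambled arrays, and the changes of -1.43, -1.29 and -1.69 (SE 0.31 each) had limma adjusted p-values of 0.0139, 0.0221 and 0.00532. In the LINC00158 experiment PEAK1 differed by -0.92, -1.22 and -0.73 (SE 0.42 each) and was not called (limma adjusted p = 0.162, 0.0644 and 0.242). RPL5P3 fell in the RP11-161H23.5 treatments by 0.73, 0.75 and 0.73 (SE 0.15 each). The signal was exactly 8.06 on 7 of the 9 treated arrays, an instance of the equal values shared within an array set. CTSH, listed above, fell with gapmer 2 and gapmer 1+2 (-1.39 and -2.11, SE 0.40; limma adjusted p = 0.0439 and 0.00608) and missed the threshold with gapmer 1 (-1.30, adjusted p = 0.0521).

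Over the region, RP11-161H23.5 gapmer 1 gave 45 calls among 292 members, 12 higher and 33 lower (15.4%, background 13.3%), gapmer 2 gave 37, 7 higher and 30 lower (12.7%, background 12.2%), and gapmer 1+2 gave 50, 14 higher and 36 lower (17.1%, background 16.3%). The shares called were near the background, but the lower calls, at 11.3%, 10.3% and 12.3%, stood above backgrounds of 7.1%, 7.03% and 9.3%, and the higher ones, at 4.11%, 2.40% and 4.79%, below backgrounds of 6.19%, 5.2% and 6.98%. Quantile normalization gave 19 higher and 27 lower with gapmer 1+2 (15.8% called, background 16.0%). The median change of the members minus that of the other TC15 units was -0.050, -0.060 and -0.085. On the arrays it was -0.025, -0.088 and -0.030 with gapmer 1, -0.058, -0.073 and -0.058 with gapmer 2 and -0.072, -0.057 and -0.087 with gapmer 1+2, against -0.012, -0.042 and 0.003 with scrambled gapmer. All 9 treated arrays were thus below 0, and those of gapmer 2 and gapmer 1+2 below all 3 scrambled arrays. The scrambled values are drawn towards 0, since each array is part of its own reference mean, and are no independent control. The 3 member blocks had median mean changes of -0.099, -0.132 and -0.090, within a range of -0.170 to 0.023 over the 19 blocks without members. A single block holds fewer units than the region, and stretches as long as the region were not compared. Without the filter on dim units the difference between members and other TC15 units was -0.013 with gapmer 2 and -0.047 with gapmer 1+2.

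The RP11-161H23.5 counts were also lower without single arrays, and so were the backgrounds. With gapmer 1 there were 26 and 26 calls without scrambled replicate 1 or 3 and 23 and 22 without gapmer 1 replicate 1 or 3 (7.46% to 8.97%, backgrounds 7.34% to 8.48%). With gapmer 2 there were 21 and 24 without scrambled replicate 1 or 3 and 21 and 16 without gapmer 2 replicate 2 or 3 (5.57% to 8.28%, backgrounds 6.47% to 7.2%). With gapmer 1+2 there were 32 and 30 without scrambled replicate 1 or 3 and 26 without gapmer 1+2 replicate 2 (8.87% to 11.0%, backgrounds 9.99% to 10.9%). In all 3 treatments 2 members rose (0.685%, background 3.08%) and 21 fell (7.19%, background 4.02%), among them the named PEAK1, RPL5P3, SNORA77, NPM1P42, MIR6881 and RN7SL278P, chosen for mention after their values were seen.

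The mean change over the 3 LINC00158 treatments minus that over the 3 RP11-161H23.5 treatments, which share no arrays, was called for 31 of 295 tested members (10.5%, background 9.66%). For TBC1D2B the difference was -0.92 (SE 0.44; limma adjusted p = 0.187) and for EFL1 -0.40 (SE 0.38; limma adjusted p = 0.526). The B-cell markers MS4A1, CD79A, CD79B, PAX5, CD37 and BLK read between 9.06 and 14.52 on the 36 arrays. Markers of T, myeloid, erythroid, stromal and epithelial cells read between 2.99 and 5.81, except CD3E, at 5.31 to 7.0, and COL1A1, at 6.75 to 8.50. All 36 arrays therefore had high signal for the labelled cell type.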

How the data were processed

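The deposited values are log2 signals of 135750 units on 36 arrays, which the authors made by RMA (Affymetrix Expression Console, as named in the submitters' processing notes). The sources used here give no version, no build for the array table and no word on joint summarisation of the arrays. Values have a ceiling, which 2 members reached on some CYTOR array. Gene names came from the array's annotation, which can be old, and of units with the same name the brightest was named. Within each experiment (12 arrays), units whose mean reached the median over units were fitted with 4 group means in limma 3.58.1 (lmFit and eBayes, R 4.3.3), with 8 residual degrees of freedom. A call is a two-sided Benjamini-Hochberg adjusted p under 0.05 over all tested units. The script was tested on simulated data. The number of arrays limits the precision.

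The members, gene lists, tests and alternatives were chosen with earlier results of these data known. The genes named were the 3 leading genes, the 8 highest and the 8 lowest named members by mean CYTOR change, those called alike in all 3 treatments, the nearest names at each end of the window, members of the function lists, and the 5 highest and 5 lowest genes of the opposite strand. Same-numbered treated and scrambled arrays deviated from their group means with little relation (correlations from -0.142 to 0.134), and the main fits did not pair them. Treated arrays were not set against each other in this way, so that a pairing by number was not settled. The alternatives are listed below. Array values of the unit left out by the rule are not reported here.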

Additional observations from a re-analysis of the deposited data

Results flagged for a closer look

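KLHL25 was flagged because its change differed between the other experiments by a test of the difference itself. Its mean change over the 3 LINC00158 treatments minus that over the 3 RP11-161H23.5 treatments was 1.277 (SE 0.24; limma adjusted p = 0.00189), from 1.126 in the LINC00158 experiment and -0.151 in the RP11-161H23.5 experiment. All 9 treated LINC00158 arrays were above their scrambled arrays, while the RP11-161H23.5 arrays overlapped theirs. The second KLHL25 unit was not called in either experiment. Treatment and array set cannot be told apart in either change.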

How the results depend on the processing

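Quantile normalization turned the balance of calls among members from more lower to more higher ones in the 3 CYTOR and the 3 LINC00158 comparisons, with the counts given above. Of the 246 comparisons of a main result with an alternative, 160 stayed within the set limits and 86 moved beyond them. The calls among members in the CYTOR experiment are given for gapmer 1, gapmer 2 and gapmer 1+2 against 55, 57 and 42. Quantile normalization left 29, 27 and 18 (backgrounds 6.0%, 6.77% and 4.28% of all tested units). Keeping units above the 75th percentile left 34, 36 and 22 (13.4%, 15.6% and 9.84%). Single gene names left 20, 25 and 13 of 106 (13.1%, 14.2% and 10.5% of all tested units, named or not). The RP11-161H23.5 scrambled arrays as control gave 109, 106 and 105 (29.0%, 26.5% and 27.1%). Only the groups of the contrast gave 28 and 18 with the single gapmers (8.12% and 4.19%), and the LINC00158 scrambled arrays as control 67 with gapmer 1+2 (17.4%). Leaving out 1 array gave 27 to 46, 36 to 52 and 21 to 30 in the CYTOR experiment, 14 to 76, 26 to 42 and 15 to 32 in the LINC00158 experiment and 22 to 32, 16 to 27 and 26 to 42 in the RP11-161H23.5 experiment, 0 between CYTOR treatments and between CYTOR and LINC00158 scrambled, 0 to 4 for CYTOR against RP11-161H23.5 scrambled and 1 to 5 for RP11-161H23.5 against LINC00158 scrambled. The last comparison, with 16 calls, had 10 without a filter, 6 after quantile normalization and 8 with the replicate number as a block, and CYTOR against RP11-161H23.5 scrambled, with 3 calls, had 0 with the replicate block. The block moved no other count by over 1.5 times.

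The median difference between members and other TC15 units with CYTOR gapmer 1 (-0.0467) was 0.0083 without a filter and with means, 0.0033 in a window wider by 100 identifiers at each end, -0.2283 with single gene names, and 0.0567 and 0.01 against the LINC00158 and RP11-161H23.5 scrambled arrays. With gapmer 2 (-0.0117) it was -0.1317 and with gapmer 1+2 (-0.0267) -0.1417 with single gene names, and with gapmer 1+2 0.0133 against the LINC00158 scrambled arrays. Without a filter it was 0.0467 with LINC00158 gapmer 1+2 (main 0.0817), -0.0133 with RP11-161H23.5 gapmer 2 (main -0.06) and -0.0467 with RP11-161H23.5 gapmer 1+2 (main -0.085). Leaving out 1 array gave -0.0633 to 0.0075, -0.0367 to 0.0025 and -0.0442 to 0.0008 for CYTOR, -0.0275 to 0.0467, -0.0383 to 0.045 and 0.0717 to 0.0917 for LINC00158, and -0.0817 to -0.0308, -0.0833 to -0.0658 and -0.0983 to -0.05 for RP11-161H23.5. The causes were not tested, except that single names and the stricter filter test fewer units and the groups of the contrast fewer arrays.

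The mean CYTOR change stayed between 1.60 and 2.06 for TBC1D2B, 1.17 and 1.66 for EFL1 and 1.27 and 1.65 for KLHL25 without any 1 array, and was 2.03, 1.82 and 1.73 after quantile normalization. For LARP6, PEAK1 and HOMER2 it was -1.28, -1.20 and -1.17 after that normalization. Signals near the background of the array, as of CYP11A1 or the second KLHL25 unit, may understate changes, which was not tested.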
